A study of Mus musculus with 120 samples.

Results

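The 9 neural genes described here were followed through the HSA21 (human chromosome 21) overexpression bank, and fall into a neurogenic group (Neurod1, Neurog2, Hes6 and Dner) and a cytoskeletal group (Map2, Nefl, Nefm, Tubb3 and Dcx). Every probe set that the array annotation assigns to one of these symbols alone was taken, which gave 19 of the 45101 probe sets of the Mouse 430_2 array and 16 of 22690 on the Mouse 430A_2 array used for Runx1. The 9 genes are among 18194 that the Mouse 430_2 annotation names. The cells are mouse embryonic stem (mES) clones of the EB3 line, grown with leukemia inhibitory factor, in which a FLAG-tagged coding sequence placed at the ROSA26 locus is switched on by removing tetracycline (Tc) from the medium. For each of 20 overexpressed genes, 3 induced clones without Tc and the same 3 uninduced clones with Tc were profiled, 120 arrays in all. Induction lasted 24 h for Bach1, Dscr1, Erg, Ets2, Gabpa, Nrip1, Olig1, Olig2, Pknox1, RIKEN-1810007M14, Dyrk1a, Snf1lk, Pfkl, Zfp295 and Runx1, then 39 h for Hunk, Ripk4 and Sim2, and 48 h for Aire and Pdxk. The sequences of Zfp295, Dyrk1a and Snf1lk were human and the others murine. Arrays of clones without a transgene were not analysed here, so the loss of Tc and the gain of the transgene cannot be told apart within an experiment. The Runx1 arrays (Mouse 430A_2) lack 2 of the Map2 probe sets and 1 of the Nefl probe sets.

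The basic helix-loop-helix (bHLH) proteins Neurog2 and Neurod1 act in succession as a progenitor commits to the neuronal fate and differentiates. Hes6, a relative of the Notch effector Hes1, antagonizes Hes1 and promotes differentiation, and Dner is a transmembrane Notch ligand of neurons. Map2 and Dcx bind microtubules in dendrites and in migrating neuroblasts, Tubb3 is the beta-tubulin typical of neurons, and Nefl and Nefm are the light and medium neurofilament subunits. Undifferentiated mES cells are not neurons, and whether these genes report a neural program in a pluripotent population was not tested. Because each array reads a population, more cells of a type and more RNA per cell cannot be told apart.

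The promoters of 5 members whose levels moved are shown because they moved together or in opposite directions in the same experiments. Each sequence is a RefSeq window on GRCm38.p6 that runs from 250 bases before to 50 bases after an annotated start, written 5′ to 3′ on the strand of the gene. Capitals mark the E-box CANNTG, the motif to which bHLH proteins bind. The windows are chr2:79456587-79456886 (minus strand) for Neurod1, chr1:84696172-84696471 (minus) for Dner, chr1:66175079-66175378 (plus) for Map2, chr1:91413173-91413472 (minus) for the downstream of the 2 annotated Hes6 starts, and chr8:123411303-123411602 (plus) for Tubb3.
Neurod1: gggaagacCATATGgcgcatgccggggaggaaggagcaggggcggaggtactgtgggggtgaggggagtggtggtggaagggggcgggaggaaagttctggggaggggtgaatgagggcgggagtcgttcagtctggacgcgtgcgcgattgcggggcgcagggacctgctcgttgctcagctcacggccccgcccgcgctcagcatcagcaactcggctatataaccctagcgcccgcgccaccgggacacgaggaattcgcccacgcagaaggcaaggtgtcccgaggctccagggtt
Dner: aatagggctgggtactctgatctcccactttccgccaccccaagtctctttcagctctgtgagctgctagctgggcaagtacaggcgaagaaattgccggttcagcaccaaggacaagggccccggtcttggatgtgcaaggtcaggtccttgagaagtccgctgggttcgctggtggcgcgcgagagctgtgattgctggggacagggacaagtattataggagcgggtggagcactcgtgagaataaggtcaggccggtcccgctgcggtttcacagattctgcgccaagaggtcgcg
Map2: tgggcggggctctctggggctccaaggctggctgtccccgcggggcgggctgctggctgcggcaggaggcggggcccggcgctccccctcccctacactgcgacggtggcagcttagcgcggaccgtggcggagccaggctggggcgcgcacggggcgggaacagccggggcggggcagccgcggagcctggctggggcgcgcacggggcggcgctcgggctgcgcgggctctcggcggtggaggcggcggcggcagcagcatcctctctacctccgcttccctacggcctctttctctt
Hes6: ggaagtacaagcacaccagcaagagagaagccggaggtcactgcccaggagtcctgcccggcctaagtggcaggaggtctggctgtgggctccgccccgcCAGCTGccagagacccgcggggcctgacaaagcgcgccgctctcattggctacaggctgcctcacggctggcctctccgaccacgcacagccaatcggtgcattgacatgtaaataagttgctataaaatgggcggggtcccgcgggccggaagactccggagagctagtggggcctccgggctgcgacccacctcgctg
Tubb3: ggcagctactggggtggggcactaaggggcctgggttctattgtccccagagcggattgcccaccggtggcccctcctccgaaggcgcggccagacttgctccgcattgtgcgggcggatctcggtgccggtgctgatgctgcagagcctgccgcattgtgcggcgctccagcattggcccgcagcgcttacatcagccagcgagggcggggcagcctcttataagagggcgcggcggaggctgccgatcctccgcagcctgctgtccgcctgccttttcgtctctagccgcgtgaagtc

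Of the 9 members, 7 had a window in the RefSeq table, and Hes6 and Dcx had 2 each. Searched on both strands, CANNTG was present in 72.3% of all 32851 windows of this length, and among the members in the Neurod1 window (CATATG, at position −242) and in both Hes6 windows. The palindrome CAGCTG, a form of CANNTG that 16.3% of all windows hold, occurred only in the 2 Hes6 windows. The windows of Dner, Map2, Tubb3, Neurog2 and Dcx held no CANNTG. The core ACGTG, to which Sim2 binds with its partner Arnt (19.6% of all windows), had no match in any window of the members, nor had the Runx motif TGTGGT (16.8%) outside Neurog2, which held 1, or the Ets motif CCGGAA (14.9%) outside the printed Hes6 window, which held 1. The windows differed in base composition, with a GC content of 77.7% for Map2, 66.7% for Neurod1 and 43.0% for the upstream Dcx window against a median of 52.7% over all windows. These matches describe letters only.

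The members started from very different levels. In uninduced clones of the 19 Mouse 430_2 experiments, the median log2 level over experiments was 8.21 for Tubb3 and also for the brighter Nefl probe set (1426255_at), 7.67 and 7.45 for the 2 Neurod1 probe sets, and 7.14 and 6.84 for those of Hes6. These lay between the 70.3 and 81.6 median percentiles of their arrays. Neurog2 (4.61), Nefm (3.73), Dner (4.32 and 3.07) and Dcx (3.40 to 4.45 over 4 probe sets) lay below the array median, as did all 4 Map2 probe sets (3.48 to 4.46). The differences between probe sets carry probe affinities and do not rank transcripts. Neurod1 was the most variable member among clones of an experiment, with a median SD of 0.48 and 0.52 for its probe sets, against 0.13 for Neurog2 and 0.09 to 0.15 for Dcx.

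Across the 20 experiments, 21 of the 377 pairs of a member probe set and an experiment passed the paired limma test (adjusted p under 0.05 over all probe sets of the array), 15 of them higher and 6 lower in induced clones. They came from 6 genes and 7 experiments. Sim2 clones accounted for 5 higher and 2 lower of 19 member probe sets, against 0.643% and 0.271% of all probe sets on the array. Aire clones had 5 higher and 1 lower, against 2.45% and 1.48%. The Erg clones had 1 higher and 1 lower, against 5.71% and 6.28%, so that the members moved no more often there than the array as a whole. Runx1 clones had 1 higher and 2 lower of 16, against 8.51% and 7.65%. A single member probe set was higher in each of the Nrip1 (0.113% of all probe sets higher and 0.0222% lower), Pdxk (0.231% and 0.0333%) and Olig2 (0.825% and 0.938%) experiments.

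The remaining 13 experiments held no member call in the limma fit. The share of all probe sets called was 0.00222% in the Bach1 experiment, 0.00665% for Hunk and 0.0177% for Ripk4, and 0% for Dscr1, Ets2, Gabpa, Olig1, Pknox1, RIKEN-1810007M14, Dyrk1a, Snf1lk, Pfkl and Zfp295. At an unadjusted p under 0.05, 28 of their 247 pairs passed in limma and 6 in the methods' t-test, of which none was left after Benjamini-Hochberg adjustment of that test. With the spread pooled over all Mouse 430_2 arrays 5 of these pairs passed. When the 19 Mouse 430_2 experiments were compared with each other in a moderated F test in limma, the response differed among experiments for 9 of the 19 member probe sets, against 16.2% of all probe sets. These were both probe sets of Neurod1, Hes6 and Dner, Map2 1434194_at, Nefl 1426255_at and Tubb3.

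**Figure D1:**
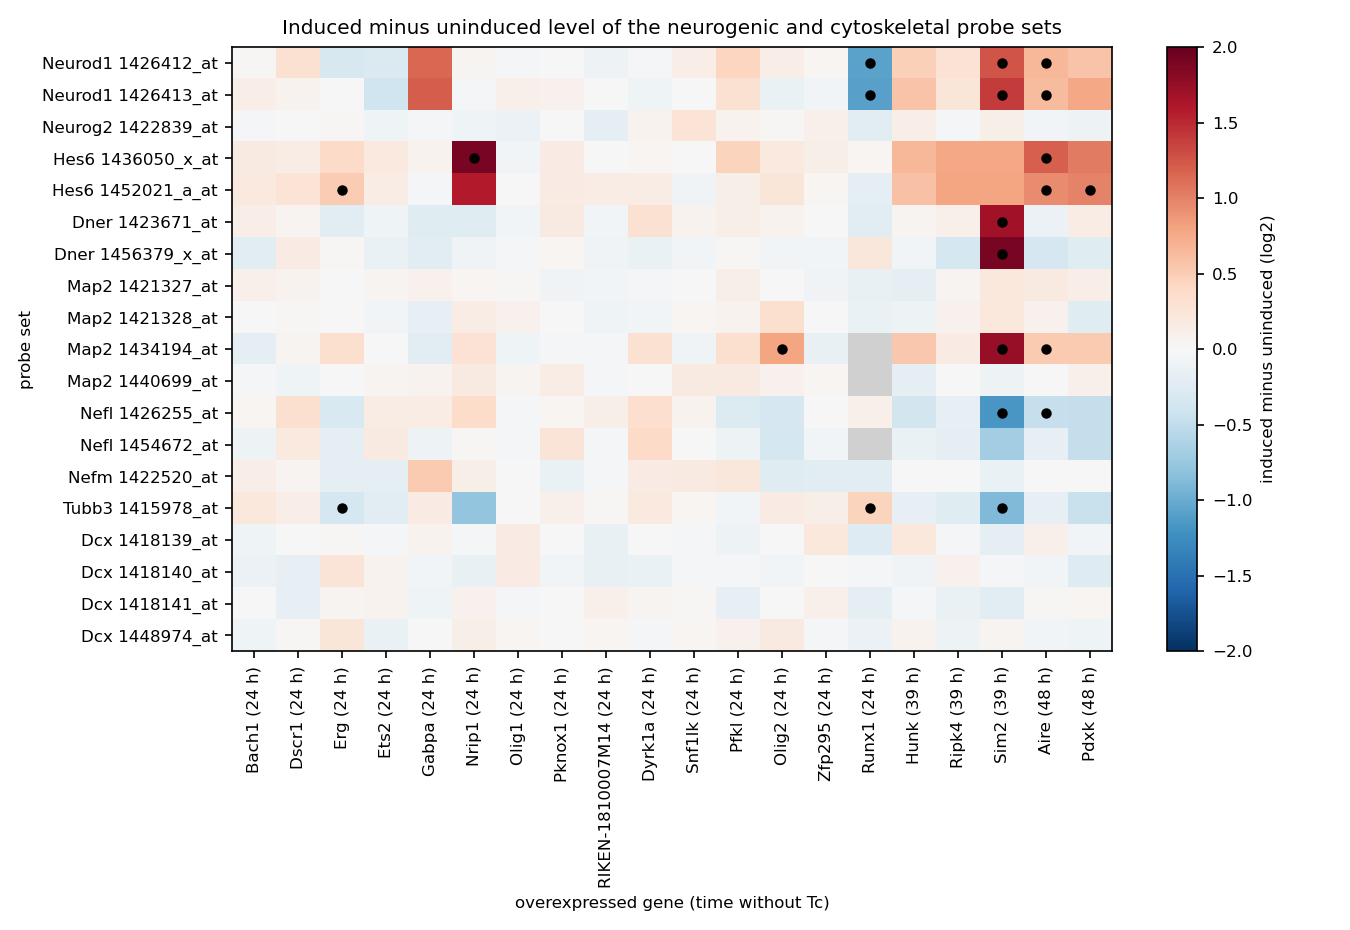
Difference in log2 level, induced minus uninduced, of each member probe set (rows) in each of the 20 experiments (columns, ordered by time without Tc). Black dots mark the 21 pairs past the limma threshold and grey cells are probe sets that the Runx1 array lacks. The strongest colours lie in the Sim2 column, in the Hes6 rows and in the Neurod1 rows.

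Sim2, itself a bHLH-PAS factor of the developing midline, had the most member calls, with Aire next. At an unadjusted p under 0.05 in limma, 11 member probe sets passed for Pdxk (16.0% of all probe sets), and 10 for Sim2 (14.8%). Aire had 9 (18.3%) and Runx1 9 of 16 (32.2%). After 39 h of Sim2 induction, Neurod1, Dner and Map2 were higher and Nefl and Tubb3 were lower in all 3 clones. Induced and uninduced arrays did not overlap for 12 of the 19 member probe sets, against 15.6% of all probe sets. Neurod1 1426413_at had log2 levels of 9.18, 8.66 and 8.69 in induced clones, against 7.60, 7.34 and 7.40 in uninduced clones. Every induced array lay more than 1 log2 unit above every uninduced array, a rise of 1.40 ± 0.11 (SE, n = 3 clones, limma adjusted p = 0.0299) or 2.63-fold. The other Neurod1 probe set, 1426412_at, rose by 1.26 ± 0.12 (adjusted p = 0.0327).

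Dner, the Notch ligand, had a low level in uninduced clones and rose. Its probe set 1423671_at read 5.18, 5.37 and 6.48 in induced clones, against 4.06, 3.77 and 4.15 in uninduced clones, and 1456379_x_at read 4.32, 4.21 and 5.69 against 2.86, 2.59 and 3.07. The third clone was the highest of the induced arrays in both, and no induced array overlapped an uninduced one. The log2 differences were 1.69 ± 0.21 (3.22-fold, limma adjusted p = 0.0363) and 1.90 ± 0.22 (3.73-fold, adjusted p = 0.0327). In uninduced clones 1456379_x_at lay at the 6.62 percentile of the array, so that its fold rests on a reference close to the dimmest probe sets. In no other experiment did a Dner probe set pass the test, and the remaining 38 differences ran between −0.35 and 0.30.

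Map2 1434194_at, 1 of 4 probe sets of this dendritic microtubule protein, read 6.11, 6.06 and 5.94 in induced Sim2 clones, against 4.63, 4.04 and 4.22 in uninduced clones. The rise of 1.75 ± 0.13 (3.36-fold, limma adjusted p = 0.0299) left no overlap between the states. The other Map2 probe sets differed by 0.21 (1421327_at and 1421328_at) and −0.11 (1440699_at), with adjusted p between 0.447 and 0.767. They lay between the 19.97 and 28.3 median percentiles of the uninduced arrays, against 41.7 for 1434194_at, and whether they read other transcripts was not tested.

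Nefl and Tubb3 moved the other way in the same clones. Nefl 1426255_at read 6.84, 7.41 and 6.79 in induced clones, against 8.15, 8.14 and 8.27 in uninduced clones, a fall of 1.17 ± 0.16 on the log2 scale (limma adjusted p = 0.0426). The second Nefl probe set, 1454672_at, read lower in all 3 clones as well (−0.69 ± 0.16, adjusted p = 0.106). Tubb3 read 7.28, 7.42 and 6.86, against 7.92, 8.22 and 8.06 in uninduced clones, and decreased by 0.88 ± 0.13 (adjusted p = 0.0468). Neither gene's induced and uninduced arrays overlapped. Neurog2, which acts upstream of Neurod1 in neurogenesis, differed by 0.11 (95% confidence interval −0.13 to 0.35), and Nefm and the 4 Dcx probe sets by −0.21 to 0.05.

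The adjusted p-values of the Sim2 experiment lay close to the threshold, and the calls depended on which clones entered the fit. Without clone 2, 0 of the 19 member probe sets passed, and 0 probe sets passed on the whole array. Without clone 1 there were 5, against 157 on the whole array, and without clone 3 there were 9, against 1095. The differences without clone 2 were of similar size, at 1.44 for Neurod1 1426413_at, 1.73 for Dner 1423671_at, 1.61 for Map2 1434194_at, −1.39 for Nefl 1426255_at and −0.92 for Tubb3. The study lists the Sim2 clones in another order after induction. The deviations of same-numbered Sim2 arrays correlated with r of 0.40, 0.37 and 0.13, against 0.10 and −0.52 for the exchanged pairs. With the first and second induced arrays exchanged 0 member probe sets passed, and 0 on the whole array. Without the pairing 3 passed, against 47 on the whole array. In both fits the size of each difference is the same. With the spread pooled over all 19 Mouse 430_2 experiments 10 member probe sets passed, against 5248 on the whole array.

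**Figure D2:**
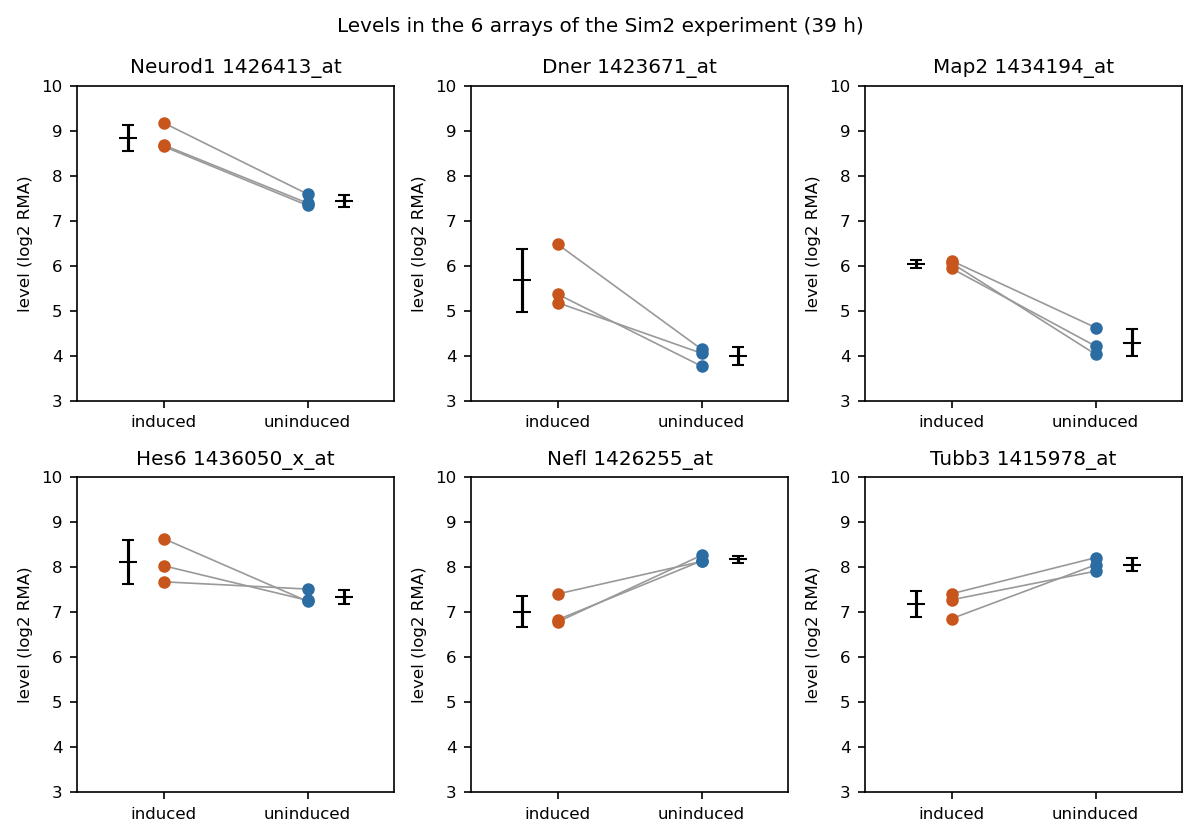
Log2 RMA levels of 6 member probe sets in the 6 arrays of the Sim2 experiment, with induced clones on the left and uninduced clones on the right of each panel. Dots are arrays, grey lines join the arrays of 1 clone, and black bars give mean ± SD (n = 3). Neurod1, Dner, Map2 and Hes6 were higher and Nefl and Tubb3 lower in each induced array than in each uninduced array.

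Neurod1 responded in opposite directions in other experiments. In Runx1 clones (24 h) 1426412_at read 6.44, 5.91 and 6.54 in induced arrays, against 7.42, 7.09 and 7.59 in uninduced arrays, and 1426413_at read 6.89, 6.24 and 7.23 against 7.88, 7.73 and 7.99. Induced and uninduced arrays did not overlap for either probe set. The differences of −1.07 ± 0.07 (limma adjusted p = 0.000751) and −1.08 ± 0.14 (adjusted p = 0.0066) correspond to 0.477-fold and 0.472-fold levels, and both passed without each clone in turn and without the pairing.

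In Aire clones (48 h) Neurod1 was higher in each clone although clones differed more from each other than they did by state. Probe set 1426412_at read 9.26, 8.15 and 7.10 in induced clones, against 8.27, 7.76 and 6.50 in uninduced clones, so that the arrays overlapped between states. Within clones it rose by 0.66 ± 0.11 (limma adjusted p = 0.019) and 1426413_at by 0.64 ± 0.10 (adjusted p = 0.0172). Neither passed without the pairing (adjusted p = 0.718 and 0.688) or without clone 3 (0.118 and 0.124), nor with the spread pooled over the Mouse 430_2 experiments (0.055 and 0.085).

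The Gabpa experiment (24 h) gave differences almost as large as that of Sim2 without passing its own test. Neurod1 1426413_at read 7.12, 7.53 and 7.85 in induced clones, against 5.80, 7.16 and 5.93 in uninduced clones. Clone 2 stood apart in the uninduced state, and 1 induced array (7.12) lay below it. The difference was 1.20 ± 0.27 (95% confidence interval 0.54 to 1.87, limma adjusted p = 0.226), and that of 1426412_at was 1.15 ± 0.24 (adjusted p = 0.221). With the spread pooled over the Mouse 430_2 experiments both passed (adjusted p = 9.16e-05 for 1426413_at and 0.000101 for 1426412_at), and so they did without clone 2 (0.000826 and 0.000479), but not without clone 1 (0.384 and 0.377) or clone 3 (0.961 each). The replicate numbers of the Gabpa arrays did not track each other in the data, with correlations of the deviations of 0.05, −0.18 and 0.17. In Ets2 clones both probe sets read lower in all 3 clones (−0.28 ± 0.08 and −0.40 ± 0.08), with an adjusted p of 0.933 each.

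**Figure D3:**
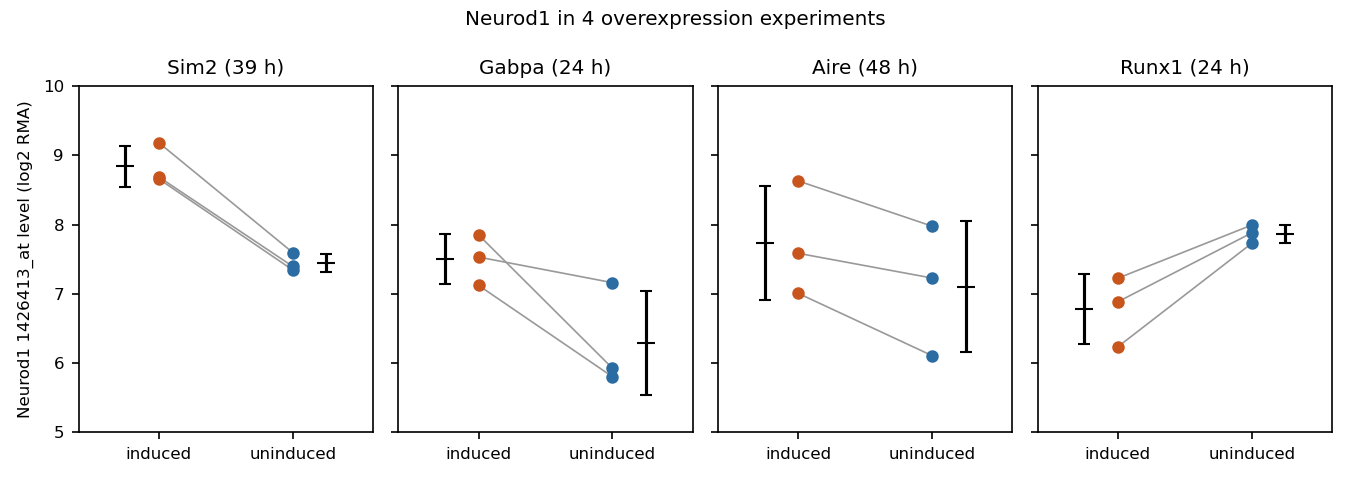
Log2 RMA level of Neurod1 1426413_at in the Sim2, Gabpa, Aire and Runx1 experiments, induced clones left and uninduced clones right in each panel. Dots are arrays, grey lines join the arrays of 1 clone, and black bars give mean ± SD (n = 3). All 3 lines run higher at the induced end in the Sim2, Gabpa and Aire panels and lower in the Runx1 panel, whose levels come from another array and are not comparable with the rest.

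Hes6 was the member that rose most widely. Its difference was positive in 36 of 40 pairs of a probe set and an experiment. Of all probe sets, between 43.9% (Runx1) and 52.5% (Dscr1) had a positive difference in an experiment. The 2 probe sets read the same gene, so these 40 pairs are not independent. In the test 5 Hes6 pairs passed, all of them higher, in 4 experiments, and none passed lower. The largest change followed Nrip1, a nuclear receptor corepressor, where 1436050_x_at read 7.94, 9.05 and 8.66 in induced clones, against 6.52, 6.68 and 6.74 in uninduced clones. The arrays were separated by more than 1 log2 unit, and the rise was 1.90 ± 0.18 (3.74-fold, limma adjusted p = 0.0323). The second probe set, 1452021_a_at, differed by 1.59 ± 0.21 with an adjusted p of 0.055. The first call was lost without clone 1 or clone 3 (adjusted p = 0.145 and 0.105) and without the pairing (0.151).

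In Aire clones Hes6 1436050_x_at read 8.88, 8.48 and 8.03 in induced clones, against 8.0, 7.30 and 6.50 in uninduced clones, and rose by 1.20 ± 0.11 (limma adjusted p = 0.00339). Its partner 1452021_a_at rose by 0.94 ± 0.09 (adjusted p = 0.00325). Both passed whichever of the 3 clones was left out, but not without the pairing (adjusted p = 0.25 and 0.359), since the clones differed in level. In Pdxk clones 1452021_a_at read 8.87, 9.21 and 8.90 in induced clones, against 7.59, 8.59 and 7.80 in uninduced clones. The uninduced clone 2 came closest to the induced arrays. The rise was 1.00 ± 0.13 (adjusted p = 0.0353), and it missed the threshold after a second quantile normalization (0.055) and without clone 1 or 3 (0.281 and 0.355).

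In Erg clones the same Hes6 probe set rose by 0.51 ± 0.12 (limma adjusted p = 0.0351), with 7.25, 6.38 and 7.21 in induced clones, against 6.52, 6.25 and 6.54 in uninduced clones. Clone 2 moved least and its induced array overlapped the uninduced ones. The call was lost without clone 1 or clone 3 (adjusted p = 0.144 and 0.207) and without the pairing (0.218). The Hunk, Ripk4 and Sim2 experiments gave differences of 0.59 to 0.79 in both probe sets, all 3 clones being higher, with adjusted p between 0.086 and 0.468 in their own fits.

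Among the cytoskeletal members, Map2, Nefl and Tubb3 had calls outside the Sim2 experiment. In Olig2 clones Map2 1434194_at read 5.62, 5.55 and 5.95 in induced clones, against 4.73, 4.78 and 5.24 in uninduced clones, without overlap, and rose by 0.79 ± 0.07 (1.73-fold, limma adjusted p = 0.00549). Olig2 is a bHLH factor of oligodendrocyte and motor neuron progenitors. In Aire clones the same probe set rose by 0.52 ± 0.08 (adjusted p = 0.015), with 6.0, 5.27 and 5.42 in induced clones, against 5.32, 4.77 and 5.03 in uninduced clones. The Aire arrays overlapped between states. The Olig2 call was lost without clone 1 (adjusted p = 0.069) and the Aire call without clone 3 (0.076), and both without the pairing (0.167 and 0.365).

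Nefl 1426255_at fell by 0.46 ± 0.10 in Aire clones (limma adjusted p = 0.039), which read 8.89, 8.83 and 8.05 in the induced state, against 9.61, 9.07 and 8.49 in the uninduced state. It did not pass without clone 1 (adjusted p = 0.079), without clone 3 (0.195), without the pairing (0.608) or with the pooled spread (0.201). The second Nefl probe set, 1454672_at, read 7.33, 7.63 and 7.0 in induced Aire clones, against 8.29, 7.41 and 6.75 in uninduced clones. It was lower in clone 1 and higher in clones 2 and 3. Tubb3 fell in Erg clones by 0.36 ± 0.09 (adjusted p = 0.0334), with 7.53, 8.0 and 8.03 in induced clones, against 8.03, 8.32 and 8.28 in uninduced clones. The lowest uninduced and the highest induced array were nearly equal, and no fit without a clone kept this call (adjusted p = 0.068 to 0.185), nor did that without the pairing (0.197) or that with the pooled spread (0.134).

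Runx1 was the experiment in which Tubb3 rose. Its levels were 9.21, 9.12 and 9.29 in induced clones, against 8.81, 8.72 and 8.74 in uninduced clones, a difference of 0.45 ± 0.07 (1.36-fold, limma adjusted p = 0.00971) that passed without each clone and without the pairing. In Nrip1 clones Tubb3 read 7.25, 7.35 and 7.28 in the induced state, against 7.70, 8.75 and 7.78 in the uninduced state. Clone 2 made up most of this difference of −0.78 ± 0.19, whose adjusted p was 0.197.

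Neurog2, Nefm and Dcx had no call in the limma fit of any single experiment. With the spread pooled over all Mouse 430_2 arrays Nefm had 1 call and the other two had none. At an unadjusted p under 0.05 in limma, 2 of 20 pairs passed for Neurog2, 2 of 20 for Nefm and 6 of 80 for Dcx. The share of all probe sets at that level ran from 2.24% (Dscr1) to 32.2% (Runx1) over the 20 experiments. The methods' t-test gave 1, 1 and 4 pairs before adjustment and 0 after it. The differences of these 3 genes were also small, from −0.23 to 0.27 for Neurog2, −0.24 to 0.52 for Nefm and −0.26 to 0.26 for Dcx. The largest of them was that of Nefm in Gabpa clones, with 5.70, 5.16 and 5.25 in induced clones, against 4.58, 5.29 and 4.67 in uninduced clones (0.52 ± 0.22, adjusted p = 0.45). The lowest adjusted p-values of the 3 genes were 0.0941, 0.0592 and 0.0739, all in Runx1 clones, where these probe sets read 0.23 to 0.26 lower.

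Several members had mean differences of the same sign in all experiments with the longer times without Tc. At 24 h the signs were mixed, except for Hes6 1436050_x_at, which was positive in 13 of 14 experiments and mostly smaller. How many of all probe sets keep the same sign over the longer experiments is not given here. In the 5 Mouse 430_2 experiments of 39 h and 48 h (Hunk, Ripk4, Sim2, Aire and Pdxk), the mean difference of Hes6 1436050_x_at was 0.66 to 1.20, against −0.05 to 1.90 in the 14 experiments of 24 h, in which every value except that of Nrip1 was at or below 0.45. The mean difference of Neurod1 1426413_at was 0.24 to 1.40 in the 5 longer experiments and positive in 7 of the 14 shorter ones. Map2 1434194_at was positive in 5 of 5 and in 6 of 14. The dimmer Map2 probe sets did not share this, with 4 of 5 and 8 of 14 for 1421327_at, 3 and 8 for 1421328_at and 2 and 9 for 1440699_at. Nefl 1426255_at was negative in all 5 (−1.17 to −0.17) and positive in 10 of 14 (median 0.06). The second Nefl probe set, 1454672_at, was negative in all 5 and positive in 6 of 14 (median −0.03). Tubb3 was negative in all 5 (−0.88 to −0.17) and positive in 9 of 14. In Ripk4 clones these signs rested on clone 2, since the differences in clones 1, 2 and 3 were −0.29, 1.32 and −0.31 for Neurod1 1426413_at, 0.60, −1.22 and 0.12 for Nefl 1426255_at and 0.34, −0.96 and −0.12 for Tubb3.

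Each overexpressed gene was profiled at 1 time, so that time and gene cannot be told apart. The array medians also differed, at 5.33 to 5.68 in the longer experiments against 4.89 to 5.41 in the shorter Mouse 430_2 experiments, and their part in the pattern was not tested. The Pfkl arrays are labelled 24 h, but the study's own list of induced clones gives them a longer time. In these Hes6 1436050_x_at, Neurod1 1426412_at and Map2 1434194_at differed by 0.45, 0.43 and 0.32, with adjusted p between 0.87 and 0.901.

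**Figure D4:**
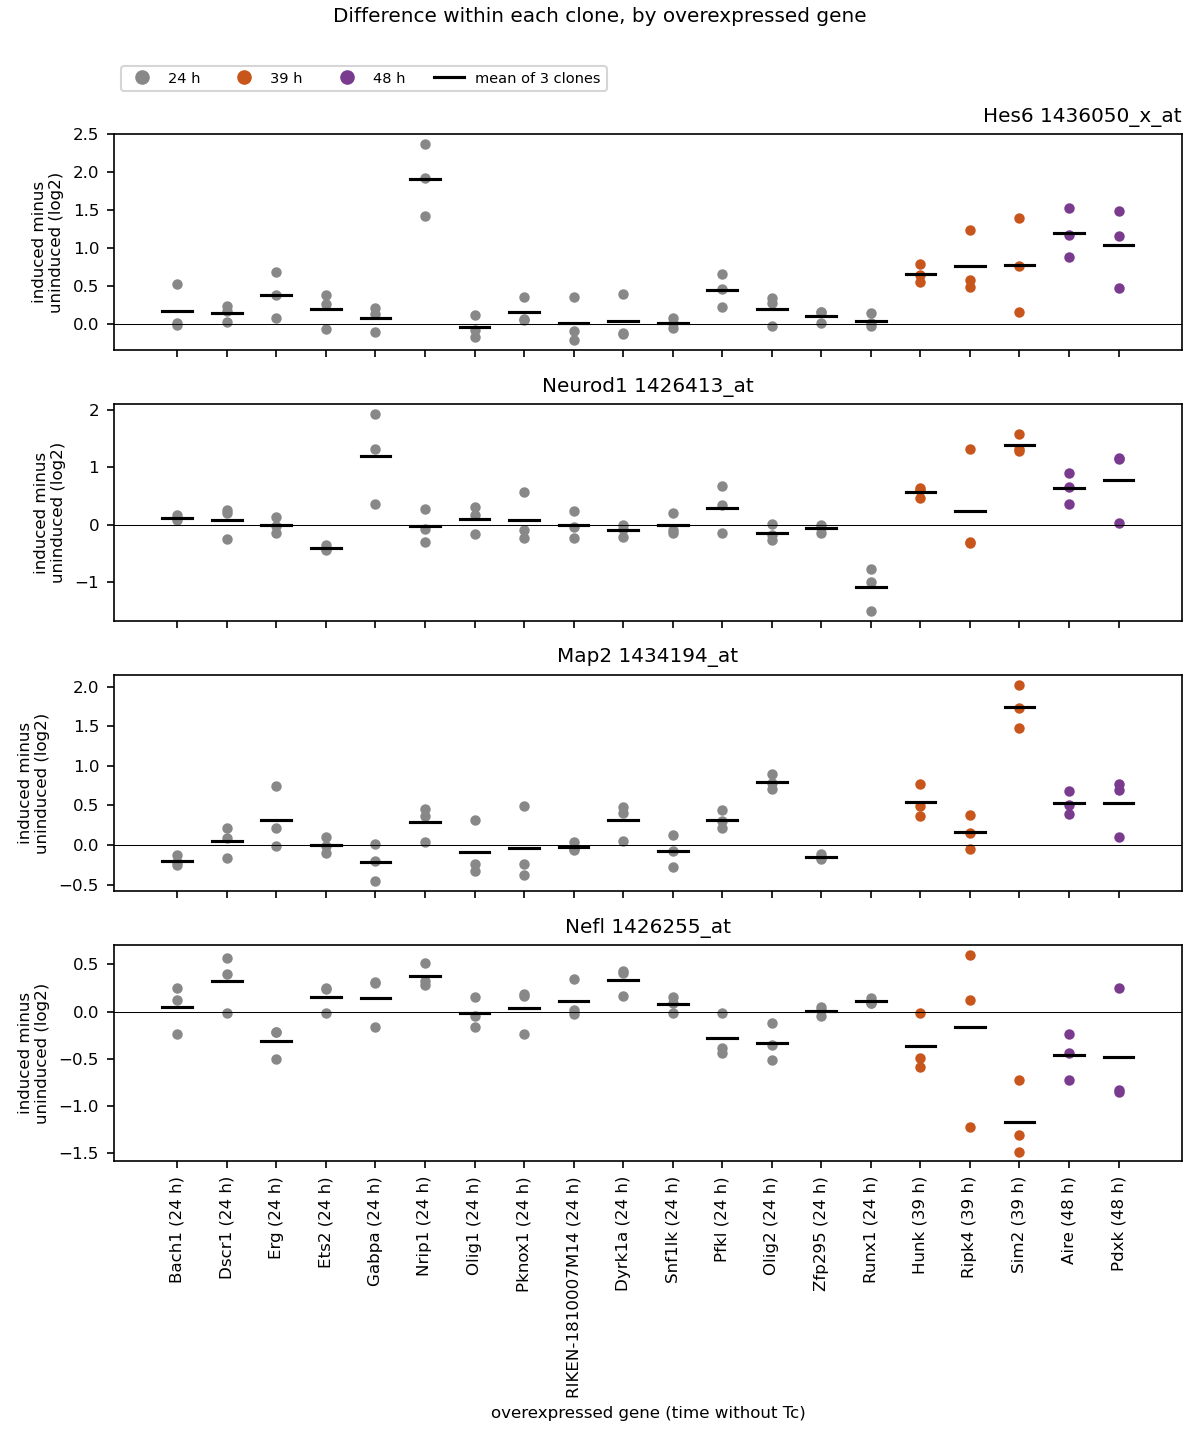
Log2 difference, induced minus uninduced, within each of the 3 clones (dots) and their mean (black line) for Hes6, Neurod1, Map2 and Nefl in each experiment, ordered by time without Tc. Grey, orange and purple dots stand for 24, 39 and 48 h, and Map2 1434194_at has no Runx1 value. The means at 39 and 48 h lie above 0 for Hes6, Neurod1 and Map2 and below 0 for Nefl.

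Each response was set against the mean response of the other 18 Mouse 430_2 experiments, in 1 limma fit over 57 clone differences. Since 14 of the 19 experiments were of 24 h, this contrast cannot tell the overexpressed gene from the time in the longer ones. For Sim2, 8 of 19 member probe sets differed, against 9.30% of all probe sets. These were Neurod1 (1.06 ± 0.20 and 1.21 ± 0.21 above the others), Dner (1.68 ± 0.13 and 2.0 ± 0.16), Map2 1434194_at (1.58 ± 0.14), both Nefl probe sets (−1.13 ± 0.19 and −0.65 ± 0.17) and Tubb3 (−0.80 ± 0.16), with adjusted p from 4.01e-12 to 0.00782. Hes6, whose response in Sim2 clones was 0.77 and 0.78, was not among them. The count was 8, 8 and 9 with a Sim2 clone left out and 4 without the pairing.

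Nrip1 differed from the others in 3 member probe sets, against 3.92% of all. Both Hes6 probe sets were 1.55 ± 0.17 and 1.26 ± 0.15 above the mean of the others and Tubb3 was 0.71 ± 0.16 below it, and 2 of the 3 passed without the pairing. Gabpa differed in 5, against 9.09% of all. Neurod1 (0.95 ± 0.20 and 1.00 ± 0.21) and Nefm (0.54 ± 0.17) were above the others, and Hes6 1452021_a_at (−0.47 ± 0.15) and Map2 1434194_at (−0.49 ± 0.14) were below them, but none of the 5 passed without the pairing, and 2, 4 and 1 passed without Gabpa clones 1, 2 and 3.

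For Pdxk 2 probe sets differed, both of Hes6 (0.64 ± 0.17 and 0.63 ± 0.15), against 2.90% of all, for Aire 1, Hes6 1436050_x_at (0.80 ± 0.17), against 0.745%, and for Olig2 1, Map2 1434194_at (0.57 ± 0.14), against 1.68%. Erg differed in 2, Neurod1 1426412_at (−0.60 ± 0.20) and Dcx 1418140_at (0.32 ± 0.11), against 12.3% of all, a share near that of the whole array. The calls of these 4 experiments did not pass without the pairing. Without clones 1, 2 and 3 of the experiment concerned, the counts were 0, 6 and 0 for Pdxk, 1, 0 and 0 for Aire, 0 each time for Olig2 and 1, 0 and 1 for Erg.

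**Figure D5:**
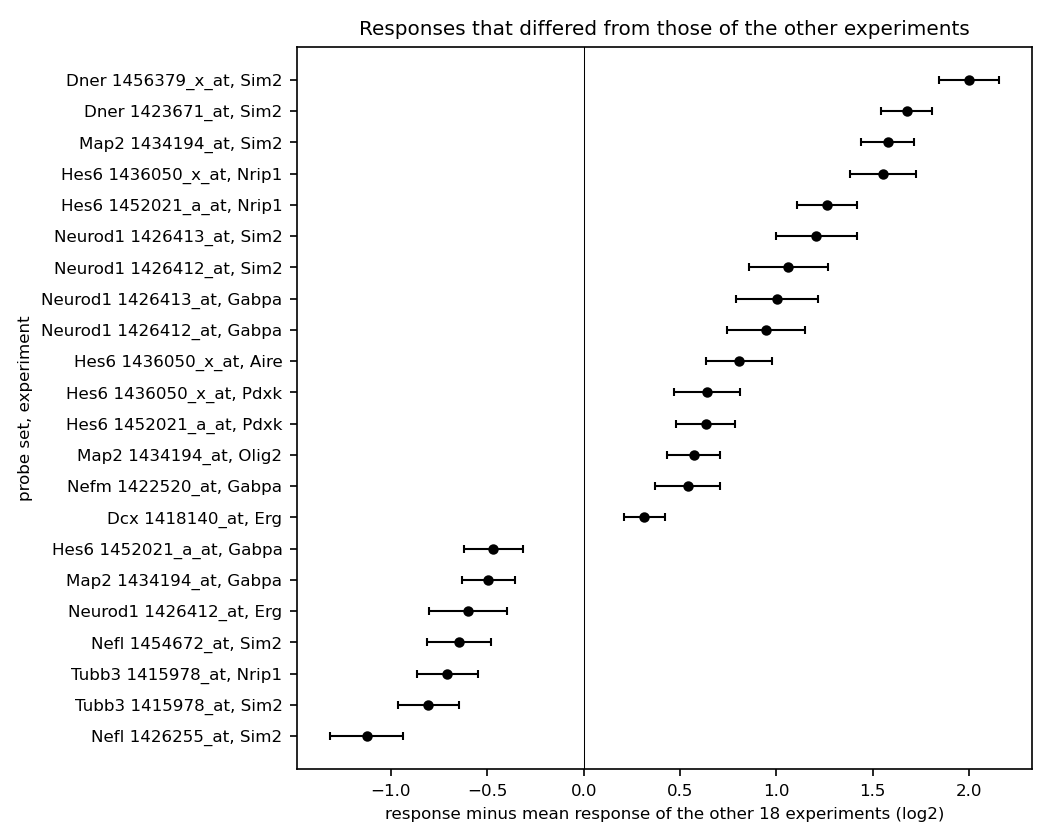
Member probe sets whose response in 1 experiment differed from the mean response of the other 18 Mouse 430_2 experiments (limma, adjusted p under 0.05). Points give the difference in log2 and bars ± SE, ordered by size. The Sim2 values of Dner, Map2 and Neurod1 and the Nrip1 values of Hes6 lie furthest above 0, and the Sim2 value of Nefl lies furthest below it.

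Genes of the surrounding neural programs moved in some of the experiments with member calls and not in others. The counts of these lists and of the markers below stand against the shares of all probe sets called higher and lower. These were 5.71% and 6.28% for Erg, 8.51% and 7.65% for Runx1, 2.45% and 1.48% for Aire and 0.643% and 0.271% for Sim2. For Olig2 they were 0.825% and 0.938%, for Pdxk 0.231% and 0.0333% and for Nrip1 0.113% and 0.0222%. Of 24 measured proneural and neuronal transcription factors none passed in Sim2 clones, where the median difference was 0.01, and in Aire clones 2 rose, Sox4 (0.54) and Sox11 (0.33). Sox11, a SoxC factor of differentiating neurons, also rose in Erg (1.87) and Olig2 (0.76) clones. In Erg clones Neurog3 fell by 0.62, and in Olig2 clones 3 factors fell, most of all Ebf1 (−1.12) and Insm1 (−0.76). In Runx1 clones, where Neurod1 fell, 5 of 19 fell, with Sox4 (−0.92) and Ebf1 (−0.79) ahead and Sox11 (−0.50) among them. The array as a whole had a median difference of −0.03 in Runx1 clones and between −0.02 and 0.01 in the other experiments.

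Repressors and antagonists of neuronal genes were led by the Id genes, whose products sequester the partners of bHLH proteins. Id4 rose in Sim2 clones (1.19), and was the only 1 of 18 to pass there. Aire clones had 2 higher, Id2 (0.88) and Id4 (0.62), and Nrip1 clones 1, Id2 (1.85). Erg clones had 5 higher, with Id2 (2.51) and Id1 (2.13) ahead, and Olig2 clones 2 lower, Id4 (−0.58) and Hes1 (−0.43). Runx1 clones had 3 higher, led by Id2 (1.59) and Tle3 (0.73), and 6 lower, led by Ehmt2 (−1.29) and Rest (−0.66). Rest is a repressor of neuronal genes in cells that are not neurons. In Pdxk clones none passed.

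The neuronal cytoskeleton and growth cone list had no call among its 32 genes in Sim2 or Pdxk clones. In Aire clones Dpysl3 (0.64), Crmp1 (0.59) and Dpysl2 rose, which encode collapsin response mediators of the growth cone. Gap43, a growth cone protein, rose in Nrip1 clones (1.39) and fell in Olig2 clones (−0.48). In Erg clones 11 rose and 3 fell, with Stmn3 (2.09) and Map1a (0.74) highest and Dpysl3 (−1.39) and Kif5c (−1.11) lowest. In Runx1 clones 5 of 30 rose, led by Tubb6 (1.02) and Dclk1 (0.84), and 9 fell, led by Gap43 (−2.19) and Stmn3 (−1.05). Of 23 RNA-binding, synaptic and membrane genes, none passed in Sim2, Nrip1, Olig2 or Pdxk clones and 1 fell in Aire clones, Chga (−0.35). In Erg clones Chga (0.61) and Celf4 (0.44) rose and Ncam1 (−1.14) and Scn3a (−0.53) fell, against 5.71% and 6.28% of all probe sets. In Runx1 clones 3 rose, led by Stx1a (1.40) and Ncam1 (0.82), and 5 fell, led by Elavl4 (−0.54) and Chga (−0.48).

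The labelled cell type was checked against markers. All 10 ES cell markers, Pou5f1, Nanog and Sox2 among them, lay above the array median in the uninduced clones of all 19 Mouse 430_2 experiments, as did 5 to 6 of 8 neuron markers and 1 to 3 of 6 measured neural progenitor markers. In Runx1 clones, where Neurod1 fell, 7 of the 10 ES cell markers fell too (summed as a mean level of 11.89 to 11.97 in induced clones, against 12.34 to 12.43 in uninduced clones), and in Erg clones 5 fell (11.73 to 11.86, against 12.05 to 12.21). In Nrip1 clones none passed and the mean level was 11.32 to 11.80, against 11.87 to 12.06. The part of these shifts in the member changes was not tested. In Sim2 clones the ES cell (11.82 to 12.02, against 11.75 to 12.01) and neuron (6.39 to 6.56, against 6.40 to 6.58) levels overlapped, and none of those 18 markers passed.

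Of the other marker lists, trophoblast Krt7 rose in Sim2 (0.94) and Runx1 (1.65) clones, where Eomes also rose (1.74), and in Aire clones Cdx2, Eomes, Sox7 and Pax6 fell (−0.81 to −0.37). Erg clones had higher Thy1, Kdr, Slc1a3 and Nes, and Olig2 clones higher Thy1 and Sox7. In Runx1 clones Sox7, Pax6, Kdr and Lum fell and Nes rose, and 3 of 8 neuron markers fell, Gap43 (−2.19), Elavl4 (−0.54) and Syn1 (−0.26). Of the overexpressed genes in these 7 experiments, only Runx1 had probe sets of its own that passed, 2 of 5 (1.13 and 1.39). The transgenes hold coding sequence alone, and probe sets outside it read the endogenous gene, so these values do not check the labels.

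Over the 19 Mouse 430_2 experiments the mean differences of the 2 probe sets of Hes6 followed each other with a Pearson r of 0.97, those of Neurod1 with 0.95 and those of Dner with 0.90. With the Sim2 experiment left out, a choice made after the data were seen, these were 0.97, 0.92 and 0.01 over 18 experiments. Between genes, Map2 1434194_at ran with Dner 1423671_at (0.76) and against Nefl 1426255_at (−0.82), and Hes6 ran against Tubb3 (−0.77 and −0.80). Without Sim2 the r of Map2 with Dner was 0.12 and that of Map2 with Nefl −0.62, and those of Hes6 with Tubb3 were −0.85 and −0.86. The agreement of Dner with Map2 and between its own probe sets thus rested on the Sim2 experiment. Outside the members, the genes whose differences were most like each member were Pias2 (0.91) for Neurod1, Atp10a (0.94) for Hes6, B4galnt2 (0.91) for Dner, Insr (0.94) for Map2, Ptpn2 (0.94) for Nefl, Tmem79 (0.90) for Tubb3 and Mideas (0.92) for Nefm. Neurog2 and Dcx, whose differences were small throughout, had their closest genes at 0.71 (Rbm41) and 0.84 (9530057J20Rik). How far single experiments carry these likenesses was not tested. They are descriptions over 19 points, and the arrays of an experiment share 1 normalization.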

How the data were processed

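The deposited log2 intensities had been made by the authors from Affymetrix arrays with RMA (affy package, version not given in the sources used here). They covered 114 Mouse 430_2 and 6 Mouse 430A_2 arrays, and no column was left out. Genes were named from the platform annotation. Members and gene lists were chosen with earlier results of these data known. Named were the member probe sets past the threshold, the others where they bear on a call, and up to 2 list genes in each direction. Within each experiment, induced minus uninduced was tested in limma 3.58.1 (R 4.3.3) with clone as a block and Benjamini-Hochberg adjustment over all probe sets of the array. The block follows from the design, the same clones with and without Tc. Same-numbered arrays deviated together (r above 0.1) in 54 of 60 pairs, with a median r of 0.38. One probe set was empty in the Sim2 arrays and left out there. Replicates are separate clones. With clone as a block, the p-values rest on how far the difference between states varied among clones, not on how far clones differed in level. The number of clones (3 per group) limits the precision. The paired fits were also run on simulated data with independent noise and the same pairing, which cannot test whether the labelled pairs are true. Figures were drawn with Python 3.11.15, pandas 2.3.3 and matplotlib 3.10.9.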

Additional observations from a re-analysis of the deposited data

Results flagged for a closer look

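The values below differed from the mean response of the other 18 Mouse 430_2 experiments in a limma test of that difference (log2, adjusted p under 0.05). In the Sim2 experiment they were 1.06 and 1.21 for the Neurod1 probe sets 1426412_at and 1426413_at, 1.68 and 2.0 for the Dner probe sets 1423671_at and 1456379_x_at, 1.58 for Map2 1434194_at, −1.13 and −0.65 for the Nefl probe sets 1426255_at and 1454672_at, and −0.80 for Tubb3. In the Nrip1 experiment they were 1.55 and 1.26 for the Hes6 probe sets 1436050_x_at and 1452021_a_at and −0.71 for Tubb3. In the Gabpa experiment they were 0.95 and 1.00 for the Neurod1 probe sets, −0.47 for Hes6 1452021_a_at, −0.49 for Map2 1434194_at and 0.54 for Nefm. Hes6 differed by 0.64 and 0.63 in the Pdxk experiment and, for 1436050_x_at, by 0.80 in the Aire experiment. Map2 1434194_at differed by 0.57 in the Olig2 experiment. In the Erg experiment Neurod1 1426412_at differed by −0.60 and Dcx 1418140_at by 0.32.

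In Runx1 clones the Neurod1 probe sets changed by −1.07 and −1.08, opposite in all 3 clones to the Aire and Sim2 clones, and Tubb3 by 0.45, opposite in all 3 clones to the Erg and Sim2 clones. These differences between experiments were not tested, since the Runx1 arrays are of another type.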

How the results depend on the processing

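With 3 clones per group and adjusted p-values near the threshold, counts of called member probe sets moved with the processing. Of 948 values for 107 single probe set results under the alternatives, 783 stayed on their side of the threshold, 127 no longer passed and 38 passed only then. Most alternatives leave the estimate as it is, and only a left-out clone or a second normalization could change a sign, so directions are not counted here. Without the replicate block, 6 of the 21 calls were left: 0 for Aire, Erg, Nrip1, Pdxk and Olig2, 3 for Sim2 and 3 for Runx1. On the whole array that fit called 5 probe sets for Aire, 3860 for Erg, 0 for Nrip1 and Pdxk, 79 for Olig2, 47 for Sim2 and 3119 for Runx1. With a Sim2 crossed replicate block 0 member probe sets passed, and 0 on the whole array. Leaving out each clone in turn gave 13 to 26 calls in all, 2 to 7 for Aire, 0 to 2 for Erg, 0 to 2 for Nrip1, 0 to 8 for Pdxk, 0 to 1 for Olig2 and 0 to 9 for Sim2. The counts of the whole array moved as well, with 110 to 2025 probe sets for Aire, 2408 to 4911 for Erg and 0 to 52 for Nrip1. They were 1 to 4995 for Pdxk, 28 to 430 for Olig2 and 0 to 1095 for Sim2. The methods' t-test with Benjamini-Hochberg adjustment gave 1 call, Tubb3 in Runx1 clones, and 0 for Aire, Erg, Nrip1, Pdxk, Olig2 and Sim2. On the whole array it passed 0 probe sets for Aire, Pdxk and Olig2, 1 for Sim2, 413 for Erg and 1443 for Runx1. It is a plain unpaired t-test. The paper's results name a Bayesian t-test (Cyber-t), which was not run here. An adjusted p under 0.01 left 6 calls, 2 for Aire and 0 for Erg, Nrip1, Pdxk and Sim2. Trend and robust moderation gave 28 calls in all, 2 for Nrip1, 2 for Pdxk and 3 for Olig2, and a second quantile normalization 0 for Pdxk. The fit over all Mouse 430_2 arrays gave 27 calls against 18, with 14 of the 18 kept, 3 for Aire, 1 for Erg, 3 for Nrip1, 4 for Pdxk and 10 for Sim2. On the whole array it called 1367 probe sets for Aire, 5989 for Erg, 2125 for Nrip1, 2703 for Pdxk and 5248 for Sim2. Against the other experiments, the fit without the replicate block gave 0 for Aire, Erg, Gabpa, Pdxk and Olig2 and 4 for Sim2, and trend and robust moderation 0 for Erg. Leaving out clones there gave 0 to 1 for Aire, 0 to 1 for Erg, 1 to 4 for Gabpa, 0 to 6 for Pdxk, 0 for Olig2 and 8 to 9 for Sim2. The cause of these changes was not tested. Dner 1456379_x_at, Nefm, Dcx and 3 of the Map2 probe sets are dim, which limits what their levels can show.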

Other observations

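The uninduced array of clone 2 stood apart in several members in the Ripk4 and Pdxk experiments. It did so as well in Neurod1 and Nefm in the Gabpa experiment and in Tubb3 in the Nrip1 experiment, whose levels are given above. In the Ripk4 experiment Neurod1 1426413_at read 8.64, 8.89 and 8.64 in induced clones, against 8.93, 7.57 and 8.95 in uninduced clones, and Nefl 1426255_at read 8.05, 7.85 and 7.79 in induced clones, against 7.45, 9.06 and 7.67 in uninduced clones. Tubb3 read 7.80, 7.65 and 7.45 in induced Ripk4 clones, against 7.46, 8.61 and 7.57 in uninduced clones. In the Pdxk experiment Neurod1 1426413_at read 8.82, 8.76 and 8.80 in induced clones, against 7.68, 8.73 and 7.64 in uninduced clones, and Nefl 1426255_at read 8.36, 7.98 and 7.78, against 9.20, 7.73 and 8.63 in uninduced clones.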
